A study of Mus musculus with 12 samples.

Results

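The livers described here are the 6 labelled control in an RNA-seq series of 12, taken from female mice aged 15 weeks on a C57BL/6J background. They were chosen by the sample titles alone, and the other group of the series enters no value below. The labels give their genotype only as control. In the breeding scheme the study describes, males heterozygous for a Tet-off *Mir483* transgene at *Rosa26* were crossed to females homozygous for *CMV*-Cre, a Cre recombinase that is active in all tissues from soon after fertilization. By that cross, littermates without the transgene would carry a maternal Cre copy, and their dams drank doxycycline until birth. The mice were kept on standard chow with a 12-h light/dark cycle, and the time of day and feeding state at dissection are not given in the sources used here. Each library is counted as 1 replicate, and nothing in the labels says whether litters were shared, so the spread below is that between these 6 samples.

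The liver makes most of the proteins of blood plasma, clears and modifies foreign and steroid compounds, and moves glucose, fat and nitrogen between meals and fasting. Most of its RNA comes from hepatocytes, whose genes differ along the axis from portal to central vein. In mice, many hepatic genes also differ between the sexes, largely through the pattern of growth hormone release, and many follow the circadian clock. How evenly such genes were expressed across livers of 1 sex, age and genotype label is the question a control group alone can address.

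Library totals ranged from 12244123 to 30431286 counts, with control replicate 4 the deepest. Of 55401 genes in the table, 24864 had a count in at least 1 control library, and protein-coding genes held 99.0% to 99.2% of the counts. *Xist*, which is transcribed from the inactive X chromosome of females, stood at 433 to 841 CPM (a counts-per-million value with TMM scaling) in every liver. No library held a count of the Y-linked genes *Uty*, *Kdm5d*, *Ddx3y* and *Eif2s3y*, and a count of 0 allows up to 3 counts per library. *Mir483* likewise had 0 counts, *Igf2* had at most 1, and *H19* had 0 to 6, whereas *Igf1*, the growth hormone target that liver secretes, stood at 298 to 548 CPM. A poly(A) library does not measure mature microRNAs, so the value at *Mir483* bears on its longer transcripts alone.

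Control replicate 1 stood apart from the others. Its log2 profile correlated with the other 5 at 0.956 to 0.962, whereas those 5 correlated with each other at 0.981 to 0.988. The first principal component held 46.6% of the variance, with a score of 40.3 for control replicate 1 against -11.3 to -5.65 for the rest. By the ratio of the gap of the outermost liver to its neighbour over the whole range of the 6, it lay beyond Dixon's 95% critical value for 6 samples in 442 of 10524 genes with a mean count of 50 or more. The other libraries did so in 22 to 106 genes each. These counts are descriptions of the libraries, and no group of livers was formed from them.

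A few secreted proteins took much of each library. The 10 genes with the most counts held 20.7% ± 1.63 (SD, n = 6) of the total, the top 100 held 44.9% ± 1.70 and the top 1000 held 73.2% ± 1.22. Levels of different genes are compared per length, in TPM (a transcripts-per-million value) from the union of annotated exons, and on that scale 110 genes exceeded 1000. *Alb*, albumin, led with 118864 ± 12446 TPM (chr5:90460897-90476602, GRCm38). Next came *Apoa2* with 28417 ± 2020 TPM, which encodes a protein of high-density lipoprotein. The others of the leading 10 were *mt-Co1*, *Apoe*, *Apoa1*, *mt-Cytb*, *Fabp1*, *Cyp2e1*, *Ahsg* and *Apoc1*, between 22263 and 11024 TPM. So 6 of the 10 encode plasma proteins, 2 are mitochondrially encoded, *Fabp1* encodes the fatty acid carrier of the hepatocyte cytosol, and *Cyp2e1* encodes an ethanol-oxidizing cytochrome P450.

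The leading genes differed in how evenly they were expressed. *Apoe* ranged only from 13850 to 16426 CPM, with a coefficient of variation (CV, the SD as a share of the mean) of 6.25%. *Alb* ranged from 88737 to 127198 CPM, with its 6 livers spread evenly through that range and a CV of 14.3%. *Apoa1*, the main protein of high-density lipoprotein, was the least even of the 10. It stood at 4842 CPM in control replicate 1, 6102 to 8722 in replicates 2, 4 and 5, and 11800 to 11928 in replicates 3 and 6. Its CV was 34.5%, and 27.6% without control replicate 1.

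**Figure D1:**
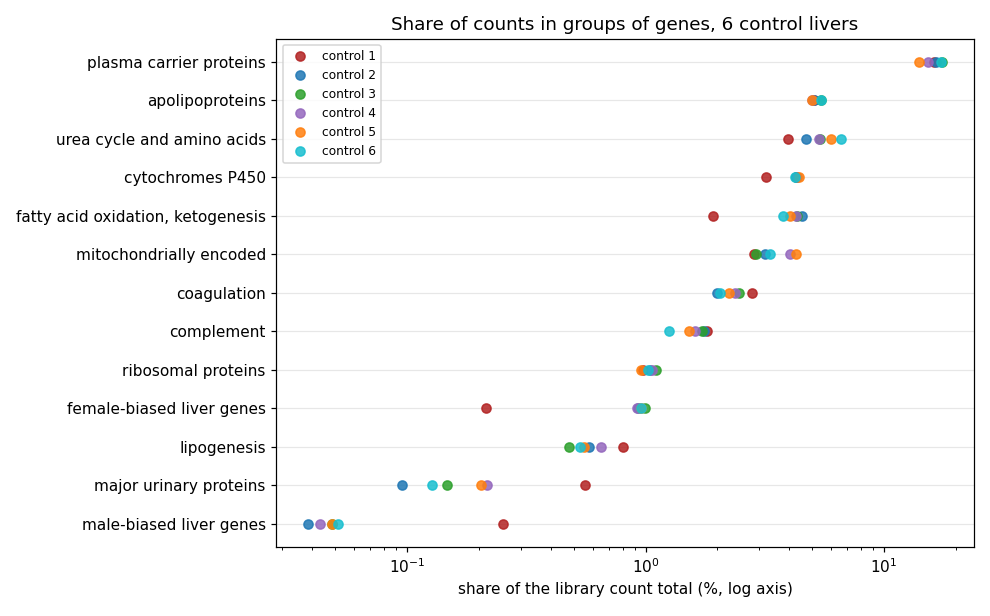
Share of the library count total (x axis, percent, log scale) taken by 13 groups of genes (y axis), with 1 point for each of the 6 control livers. Plasma carriers, at 14% to 17.4%, are the top group, and control replicate 1 lies away from the other 5 for the P450, fatty acid oxidation, female-biased, major urinary protein and male-biased groups.

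Plasma proteins were abundant. The 17 plasma carrier proteins held 16.1% ± 1.30 of the counts, led by *Alb*, *Ahsg* at 11248 ± 1464 TPM and *Trf*, transferrin, at 9978 ± 1668 TPM. None of the 17 had a CV of 50% or more, and their median CV was 15.3%, beside 13.9% over all 10524 genes tested. Genes with a CV of 50% or more made up 2.03% of those tested, so the count of 0 is near that share and says nothing particular about the carriers. The apolipoproteins held 5.16% ± 0.219 with a median CV of 12.7%. Among their 19 members past the count minimum, 1 reached 50%, *Apoa4*, whose product rides on chylomicrons and high-density lipoprotein. *Apoa4* stood at 300 CPM in control replicate 1, at 2477 CPM in replicate 6 and at 646 to 1386 CPM in between, and its CV remained 55.8% without control replicate 1. *Apod* was at the floor, with 3 counts or fewer in every library.

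Coagulation genes were among the steadiest secreted groups, with a median CV of 12.1%. Of 21 members 0 reached a CV of 50%, which is near the 2.03% of all genes tested and says nothing particular about them. The fibrinogen chains led, with *Fgg* at 3458 ± 728, *Fga* at 3073 ± 634 and *Fgb* at 2553 ± 455 TPM, and *F2*, prothrombin, followed at 1087 ± 54.2 TPM. Complement was led by *C3*, the component on which its activation routes meet, at 5419 ± 860 TPM. The complement genes with a CV of 50% or more were 4 of 22, where 2.03% of all genes tested were. All 4 encode parts of the membrane attack complex: *C6*, *C8a*, *C8b* and *C9*. Of these, *C6* and *C8b* are also on the list of male-biased genes described below. *C8a* stood at 599 CPM in control replicate 1 and at 81.3 to 189 CPM in the others, and *C6* at 72.8 against 14 to 24.2 CPM. Without control replicate 1, 0 of the 22 reached 50%, near the 0.998% of all genes tested in those 5 livers.

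The serine protease inhibitors of the *Serpina* cluster were less even, with a median CV of 34.1% over 15 genes. *Serpina3k* led at 10261 ± 3888 TPM and was 13367 CPM in control replicate 3 but 4615 to 9990 CPM elsewhere. *Serpina1e*, 1 of several gene copies for alpha-1 antitrypsin, ranged from 19.4 CPM in control replicate 2 to 1676 CPM in control replicate 1, with 132 to 491 CPM between them. By contrast its neighbour copies *Serpina1b* and *Serpina1d* had CVs of 6.01% and 9.05%. Reads are shared among such copies: of the 50-base windows in the annotated transcripts of *Serpina1e*, 34.6% also occur in transcripts of another gene, and of *Serpina1c*, 79.3%. The other members with a CV of 50% or more were *Serpina4-ps1* and *Serpina12*.

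Acute-phase genes, which rise in inflammation, were led by *Hamp*, the iron hormone hepcidin, at 6353 ± 937 TPM and *Hp*, haptoglobin, at 5067 ± 745 TPM. *Saa1*, a serum amyloid that climbs steeply in an acute response, stood at 53.9 CPM in control replicate 1 and at 11.6 to 16.6 CPM in the other 5. *Orm2*, an acid glycoprotein of plasma, was also highest there, at 29.1 against 6.28 to 11 CPM. *Lcn2*, the iron-siderophore binder lipocalin, was instead highest in control replicate 6, at 20.8 CPM against 7.17 to 10.5 CPM, and *Il1rn*, the interleukin receptor antagonist, was lowest in control replicate 1 at 2.67 CPM against 4.98 to 14.9 CPM. The zinc-binding metallothioneins *Mt1* and *Mt2* varied among all livers. *Mt2* was 206 CPM in control replicate 3 and 23.7 CPM in control replicate 6, with a CV of 74.5% that was 85.5% without control replicate 1.

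Among secreted growth factors and hormones, *Selenop*, the selenium carrier, stood at 4580 ± 641 TPM and *Agt*, angiotensinogen, at 1304 ± 118 TPM. *Igfbp1*, an insulin-repressed binding protein for insulin-like growth factors, was 58.1 and 64.0 CPM in control replicates 2 and 1 and 138 to 241 CPM in the other 4. *Angptl8*, which is induced by feeding and inhibits lipoprotein lipase, was 85.3 CPM in control replicate 1 and 8.35 to 25.6 CPM elsewhere. *Gdf15*, a stress-induced cytokine, was low throughout at 0.687 to 4.57 CPM.

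The cytochromes P450, haem enzymes that oxidize drugs, steroids and fatty acids, held 4.10% ± 0.453 of the counts. Of 99 protein-coding members, 61 passed the count minimum and 26 were at the floor. Family 2 was led by *Cyp2e1* at 12491 ± 1118 TPM and *Cyp2d26* at 1732 ± 76.0 TPM, with CVs of 10% and 3.80%. Family 3 was led by *Cyp3a11* and *Cyp3a25*, at 1668 ± 256 and 1294 ± 268 TPM. In family 4, *Cyp4a14* and *Cyp4a10*, omega-hydroxylases of fatty acids, stood far above the rest at 9264 ± 3559 and 6459 ± 2441 TPM. A CV of 50% or more was found in 17 of the 61, against 8 of the 61 without control replicate 1. A CV of 50% or more over those 5 livers was found in 0.998% of all genes tested.

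The P450 genes that varied fell on both sides. *Cyp2d9* was 614 CPM in control replicate 1, 181 CPM in control replicate 6 and 58.0 to 61.8 CPM in the other 4. *Cyp1a2*, which metabolizes caffeine, was 910 against 183 to 388 CPM, and *Cyp2c70*, which makes muricholic acids, was 317 against 25.6 to 100 CPM. *Cyp2b10*, the target by which activation of the receptor *Nr1i3* is usually read, was 71.2 against 2.79 to 14.7 CPM. In the other direction, *Cyp2a22* was 21.4 CPM in control replicate 1 and 154 to 393 CPM in the rest. *Cyp2c69* followed no such split, at 516 CPM in control replicate 3 and 60.2 to 224 CPM in the others.

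Conjugating enzymes included genes at steady and at very uneven levels. Among glutathione transferases, *Mgst1* led at 2927 ± 127 TPM with a CV of 7.42%, while *Gstm3* was 40.0 CPM in control replicate 1 and 1.78 to 4.58 CPM in the others. *Gsta2*, *Gstm6* and *Gstp1* also had CVs of 50% or more, each with control replicate 1 highest. The glucuronosyltransferases were led by *Ugt2b5* and *Ugt2b36*, at 618 ± 209 and 605 ± 126 TPM, both highest in control replicate 1. There *Ugt2b5* was 670 CPM, against 322 to 440 CPM in the others, and its CV fell from 29.4% to 15.3% without that liver. *Ugt2b1* was 417 against 111 to 197 CPM, and its CV fell from 52.0% to 20.4%. Among sulfotransferases the median CV was 45.3% over 13 genes, and 6 of the 13 reached 50%. *Sult1a1*, a phenol sulfotransferase, was the steady one at 890 ± 130 TPM. *Sult2a1*, which sulfates steroids and bile acids, was 263 to 713 CPM in 5 livers and 0.178 CPM in control replicate 1. *Sult2a2*, *Sult3a1*, *Sult3a2*, *Sult2a3* and *Sult2a5* were each under 1 CPM in control replicate 1 too, and the last 2 were highest in control replicate 2, at 25.0 and 20.4 CPM.

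Esterases and alcohol dehydrogenases showed the same mixture. *Ces1c*, a secreted carboxylesterase of mouse plasma, stood at 3494 ± 554 TPM, *Adh1* at 1643 ± 398 TPM and *Aldh2*, the mitochondrial aldehyde dehydrogenase, at 1010 ± 90.4 TPM. *Adh4* was 140 CPM in control replicate 1 and 37.7 to 46.7 CPM in the others, which among themselves had a CV of 8.11%. *Fmo5*, a flavin monooxygenase, was 549 to 944 CPM.

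Nitrogen and sugar metabolism was highly expressed. The 35 genes of the urea cycle and amino acid breakdown held 5.33% ± 0.927 of the counts, led by *Mat1a*, which makes S-adenosylmethionine, at 8892 ± 2161 TPM. *Cps1* and *Arg1*, the first and last enzymes of the urea cycle, stood at 3171 ± 598 and 3090 ± 454 TPM. Control replicate 1 was lowest in 18 of the 35, where 25.1% of all genes tested had it lowest. That list was made with earlier results of these data known, so the count is no independent check. *Mat1a* was 5929 CPM in control replicate 1 and 11668 to 15774 CPM in the others. *Bhmt*, which remethylates homocysteine, had the highest CV of the group at 55.1%, from 1049 CPM in control replicate 1 to 5742 CPM in control replicate 6. *Pck1*, the fasting-induced entry enzyme of gluconeogenesis, stood at 3378 ± 592 TPM with all livers between 3504 and 5656 CPM.

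Fatty acid oxidation and ketone body synthesis was a group in which control replicate 1 was low in most members. These 27 genes held 1.92% of the counts in control replicate 1 and 3.78% to 4.55% in the other 5. Control replicate 1 was the lowest liver in 23 of the 27. It was past the Dixon value on the low side in 14 of the 27, where 2.32% of all genes tested were. The list was made with earlier results of these data known, so these counts describe the livers and are no independent check. *Cyp4a14* was 1988 against 9668 to 11306 CPM, and *Cyp4a10* was 1157 against 5221 to 6585 CPM. *Acadm*, the medium-chain dehydrogenase, was 403 against 866 to 965 CPM, and *Cpt1a*, which lets long-chain fatty acids into mitochondria, was 458 against 909 to 1106 CPM. *Fgf21*, a hormone induced by the receptor *Ppara* in fasting, was 2.19 against 14.2 to 17.9 CPM.

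Of the genes named here, *Cpt1a*, *Acadm*, *Fgf21* and *Ppara* were picked after their values were seen. The list had exceptions. *Ppara* itself was 207 CPM in control replicate 1, within the 156 to 254 CPM of the others. *Fabp1* was lowest in control replicate 6, at 2369 CPM, and *Pdk4*, which spares pyruvate in fasting, was lowest there as well at 14.6 CPM against up to 83.9 CPM in control replicate 4. The sole member with control replicate 1 highest was *Cyp4a12a*, which is also on the male-biased list. Over the other 5 livers the median CV of the 27 genes was 8.83%, compared with 12.4% over all genes tested in those 5, whereas it was 23.8% over 6 livers.

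Lipid synthesis genes did not move as 1 block in control replicate 1. *Srebf1*, the transcription factor that drives fatty acid synthesis, was 205 CPM there and 23.6 to 52.1 CPM in the others. *Fasn*, fatty acid synthase, was 198 against 122 to 146 CPM, and *Mlxipl*, the sugar-responsive factor ChREBP, was 392 against 156 to 208 CPM. *Fads2* and *Elovl5*, which make long polyunsaturated fatty acids, were low there instead, at 423 against 763 to 994 CPM and at 184 against 431 to 604 CPM. *Scd1*, the stearoyl-CoA desaturase, varied across all livers, from 177 CPM in control replicate 5 through 572 to 1896 CPM to 3860 CPM in control replicate 1. *Lpin1*, a phosphatidate phosphatase, was 91.0 CPM in control replicate 1 and 626 CPM in control replicate 5. The 23 cholesterol synthesis genes past the count minimum had a median CV of 19.5%. Of them 0 reached 50%, near the 2.03% of all genes tested.

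Bile acid genes included even and uneven members. *Slc10a1*, the main uptake carrier for bile salts, stood at 858 ± 129 TPM. *Cyp7a1*, the rate-limiting enzyme of bile acid synthesis, was 228 CPM in control replicate 6 and 85.5 to 127 CPM in the others. *Cyp8b1*, which sets cholic acid output, was 236 and 266 CPM in control replicates 1 and 2 and 587 to 773 CPM in the other 4. *Abcb11*, the bile salt export pump, was 720 CPM in control replicate 1 and 233 to 358 CPM elsewhere, and *Slco1a1*, an organic anion carrier, was 171 against 1.70 to 33.1 CPM. *Cyp7b1*, of the acidic synthesis route, was 30.2 against 5.59 to 15.6 CPM.

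Transcription factors of the hepatocyte were expressed at moderate levels. *Nr1i3* led the nuclear receptors at 551 ± 100 TPM, ahead of *Hnf4a*, a master regulator of hepatocyte genes, at 483 ± 68.4 TPM and *Rxra*, the common partner receptor, at 250 ± 24.6 TPM. The 31 nuclear receptors past the count minimum had a median CV of 17.5%, and 1 of them reached 50%, near the 2.03% of all genes tested. It was the immediate early gene *Nr4a1*, at 14.3 CPM in control replicate 1 and 1.58 to 6.73 CPM in the others. The receptors *Vdr* and *Pgr* were at the floor. Other factors varied more, among them the clock factors *Dbp* and *Arntl* described below. So did *Bcl6* and *Cux2*, repressor and regulator of sex-dependent liver genes. *Bcl6* was 56.5 CPM in control replicate 1 and 17.2 to 29.5 CPM in the others, and *Cux2*, a female-biased factor, was 35.6 and 42.5 CPM in control replicates 3 and 2 and 4.09 to 15.1 CPM in the rest.

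The labelled tissue matched its markers. All 10 hepatocyte markers were well above the count minimum and held 13.9% ± 1.40 of the counts. Markers of the liver's resident cells were present in every liver: *Clec4f* of Kupffer cells at 75.2 to 138 CPM, *Stab2* of sinusoidal endothelium at 69.6 to 86.8 CPM, and *Reln* and *Lrat* of stellate cells at 58.3 to 87.5 and 11.3 to 17.7 CPM. In bulk RNA, fewer cells of a type and less RNA per cell cannot be told apart. The median CVs of the endothelial, Kupffer and stellate lists were 12.2%, 16.3% and 19.7%. In the stellate list *Acta2*, the smooth muscle actin of activated stellate cells and vessel walls, varied most, from 1.54 CPM in control replicate 6 to 11.4 CPM in control replicate 5, with a CV of 78.4%. *Col1a1* also passed 50%, from 1.29 CPM in control replicate 6 to 9.49 CPM in control replicate 1. Bile duct markers were mostly sparse, with *Krt19* at 0.548 to 1.60 CPM and *Epcam* at 0.601 to 2.19 CPM. *Spp1* and *Krt23* of that list were higher, at 15.2 to 36.1 and 2.92 to 9.14 CPM.

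Markers of neighbouring tissues were mostly low. Of 14 pancreas markers, 12 were at the floor, and *Cela1*, an elastase, was the sole one above the count minimum, at 13.3 CPM in control replicate 1 and 3.69 to 7.23 CPM in the others. Of 7 muscle markers 6 were at the floor, as were 5 of 10 intestine and gallbladder markers, whose total level came almost wholly from *Fabp2* at 279 ± 69.9 TPM. *Tff3*, also on the intestine and gallbladder list, had 58 counts in control replicate 1, 2 in control replicate 5 and 0 in the others. Its part in other results was not tested. Of 7 adipose markers 3 were at the floor, among them the adipocyte hormone *Lep* with 0 counts. *Fabp4*, a fatty acid-binding protein of adipocytes that endothelial cells and macrophages also express, had 86 to 206 counts in every liver, at 10.7 CPM in control replicate 5 and 6.17 to 7.38 CPM in the others. The adipocyte genes *Cfd* and *Adipoq* were also highest in control replicate 5, with 21 and 10 counts there and at most 5 and 6 in the others, and their part in other results was not tested. The lipid droplet gene *Cidec*, placed on the adipose list, was 1.07 CPM in control replicate 1 and 27.1 to 62.8 CPM in the others. Haemoglobin transcripts, a measure of blood in the piece, were highest in control replicate 4, where *Hbb-bs* was 152 CPM against 80.8 to 100 CPM. *Alas2*, the haem synthesis enzyme of red cell precursors, stood at 71.5 CPM in control replicate 1 and 12.5 to 17.2 CPM in the others, where haemoglobin of control replicate 1 was within their range.

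Mitochondrially encoded genes held 3.42% ± 0.589 of the counts, and their counts were very unequal. *mt-Co1*, *mt-Cytb*, *mt-Nd1*, *mt-Nd2*, *mt-Nd4* and *mt-Nd5* had mean counts between 51181 and 240016. *mt-Nd6*, the sole protein-coding gene on the other strand, had a mean count of 725. *mt-Co2*, *mt-Atp8*, *mt-Atp6*, *mt-Co3*, *mt-Nd3* and *mt-Nd4l*, which lie side by side on the mitochondrial genome (chrM:7013-10173), had mean counts between 0.167 and 2.5. These are subunits of the same enzymes, and every transcript comes from the same small genome. Of the 50-base windows of *mt-Co2*, *mt-Atp6*, *mt-Co3*, *mt-Nd3* and *mt-Nd4l*, 98.0% to 100% also occur in an annotated transcript of another gene, against 0% for *mt-Cytb* and *mt-Nd1* and 8.19% for *mt-Nd2*. *mt-Atp8* shared none of its 155 windows with another annotated transcript, and *mt-Co1* shared 51.1% of its own. A read that matches more than 1 gene is usually left out of gene counts. Whether that accounts for the near-0 counts of these 6 genes was not tested, and their values are not read as expression levels.

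The major urinary proteins, pheromone carriers that liver secretes into blood for excretion in urine, are another family with near-identical copies. Of 22 *Mup* genes, 11 passed the count minimum, and 10 of those 11 had a CV of 50% or more. *Mup3* led at 4647 TPM and was 4258 CPM in control replicate 1 and 835 to 1957 CPM in the others. *Mup20*, or darcin, was 413 CPM against 11 to 33.4 CPM, and *Mup7* was 258 against 3.12 to 11.2 CPM. *Mup15*, *Mup17* and *Mup18* followed another order. *Mup17* was 174 CPM in control replicate 5 and 14.6 to 49.8 CPM in the others, control replicate 1 among them at 28.3 CPM. *Mup15* was 59.8 CPM in control replicate 5 and 5.09 to 23.8 CPM elsewhere, and *Mup18* was 93.0 against 11.4 to 29.7 CPM.

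The promoters of *Mup15* and *Mup17* are printed because these genes shared their order across livers and are almost the same sequence. They come from RefSeq (GRCm38.p6) and run from 250 bases before to 50 bases after the annotated start, 5′ to 3′ on the minus strand, at chr4:61439655-61439954 and chr4:61595783-61596082. Capitals mark the bases with no identical partner when the 2 are aligned, and 297 of 300 bases have one.
Mup15: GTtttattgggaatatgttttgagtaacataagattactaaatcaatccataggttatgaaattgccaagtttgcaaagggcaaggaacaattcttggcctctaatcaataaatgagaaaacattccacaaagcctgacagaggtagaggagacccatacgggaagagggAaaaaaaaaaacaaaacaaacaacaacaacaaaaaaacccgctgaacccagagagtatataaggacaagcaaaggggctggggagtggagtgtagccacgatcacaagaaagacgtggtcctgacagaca
Mup17: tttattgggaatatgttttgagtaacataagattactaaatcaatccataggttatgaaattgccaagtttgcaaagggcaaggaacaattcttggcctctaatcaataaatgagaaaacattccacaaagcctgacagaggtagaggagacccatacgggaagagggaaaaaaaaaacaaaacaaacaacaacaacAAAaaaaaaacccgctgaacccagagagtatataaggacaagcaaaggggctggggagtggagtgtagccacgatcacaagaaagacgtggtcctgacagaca
*Mup15* and *Mup18* also align at 285 of 300 bases, while *Mup7* and *Mup17* align at 156. Of the 50-base windows of the transcripts, 100% in *Mup15*, 78.1% in *Mup17*, 89.6% in *Mup18* and 86.7% in *Mup7* occur in another gene, compared with 13.3% for *Mup3*. Levels of the copies that share most of their windows are therefore uncertain.

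**Figure D2:**
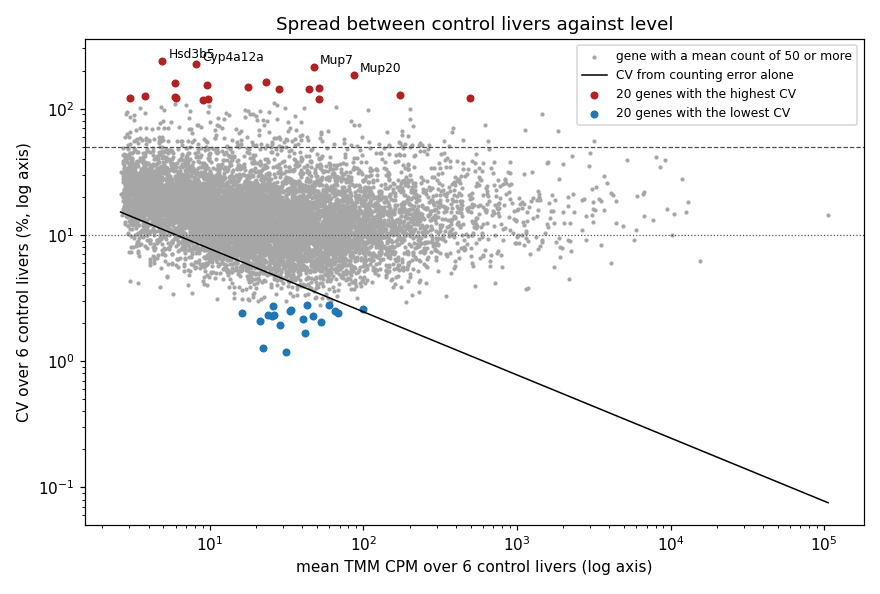
CV between the 6 control livers (y axis, percent, log scale) against mean CPM (x axis, log scale) for 10524 genes, with the CV expected from counting error alone as a line and dashed and dotted lines at 50% and 10%. The 20 most variable genes lie far above the line, and 19 of the 20 least variable lie under it.

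Across all genes the livers were close to each other. The median CV was 13.9%, and the middle 50% of genes lay between 9.86% and 19.8%. A CV of 50% or more was found in 214 genes and a CV under 10% in 2720, or 25.8%. The genes nearest the upper limit had CVs of 50.001% inside it and 49.99% outside it, so it cuts a continuous range. Ribosomal proteins were among the most even, with a median CV of 9.58% and 43 of 77 members under 10%. The nuclear-encoded respiratory chain had a median of 11.5%, with 27 of 81 under 10%. Male-biased genes, major urinary proteins, female-biased genes and sulfotransferases had medians of 101%, 101%, 65.3% and 45.3%.

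The 20 genes with the highest CV lay between 116% and 239%, and control replicate 1 was the highest liver in 13 of them and the lowest in 4. In order they were *Hsd3b5*, *Cyp4a12a*, *Mup7*, *Mup20*, *Gm43305*, *Sult2a3*, *Gstm3*, *Cyp2b10*, *A1bg*, *Mup11*, *Slco1a1*, *Cyp2d9*, *Meg3*, *Sult2a5*, *Mup21*, *Slc15a2*, *Serpina1e*, *Mup17*, *E030018B13Rik* and *Nox4*. Several others of them marked a different liver. *Gm43305*, a predicted gene, was 98.6 CPM in control replicate 5 and 0.460 to 18.6 CPM in the others. *A1bg*, a plasma glycoprotein with female-biased expression in mice, was 198 CPM in control replicate 3, 65.4 CPM in control replicate 4 and 2.67 to 23.2 CPM in the rest. *Slc15a2*, a peptide carrier, was 2.67 to 8.82 CPM in control replicates 1, 3 and 4 and 0.127 to 0.274 CPM in the other 3. Without control replicate 1, 105 genes had a CV of 50% or more, 92 of them among the 214, and the 20 with the highest CV shared 8 genes with the 20 above.

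**Figure D3:**
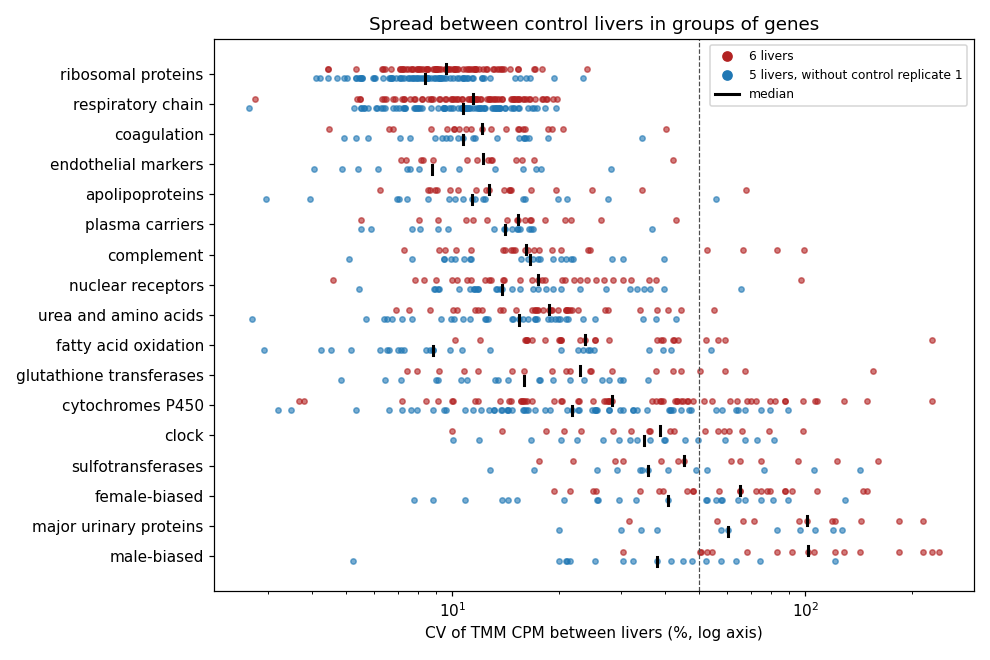
CV of each gene past the count minimum (x axis, percent, log scale) in 17 groups (y axis), over 6 livers in red and over 5 livers without control replicate 1 in blue, with medians as black bars and a dashed line at 50%. The median of the male-biased group falls from 101% to 38.0% and that of fatty acid oxidation from 23.8% to 8.83% when control replicate 1 is left out, while the clock group changes from 38.7% to 34.9%.

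The least variable genes stood at moderate levels. *Cdk16*, a cyclin-dependent kinase, was 30.8 to 31.8 CPM in all 6 livers, a CV of 1.18%. *Tmem11*, a mitochondrial membrane protein, was 21.8 to 22.6 CPM, and *Necap1*, of clathrin vesicles, was 40.5 to 42.6 CPM. *Tpm1*, *Osbp*, *Gmeb2*, *Cyfip1*, *Scaf4*, *Fkbp15*, *Micu2*, *Zfp869*, *Nfib*, *Zxdc*, *Klhdc10*, *Cherp*, *Hnrnpf*, *Wbp2*, *Snx4*, *Ndufb8* and *Pcsk7* made up the other 17 of the lowest 20, all at or under 2.80%. In 19 of the 20 the CV was smaller than counting error alone would give for their depth, which was 2.47% to 6.10%, so their order among themselves cannot be read. For genes with a mean count of 1000 or more, where counting error is smaller, *Gnas*, the stimulatory G protein subunit, was 329 to 361 CPM with a CV of 3.29%, and *Copa*, of the COPI coat, was 199 to 215 CPM with 3.35%. Common reference genes were less even than these, with CVs from 5.98% for *Sdha* to 36.8% for *Pmm1*. Between them, *Ppia* had a CV of 6.29%, *Tbp* 8.12%, *Gapdh* 16.7%, *Hprt* 23.4% and *Actb* 24.9%. *Sdha*, *Ppia* and *Tbp* thus lay under 9.86%, the lower quartile of all genes tested. Counting error alone would give 6.96% for *Tbp* and 10.2% for *Pmm1*.

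Genes known to differ between the sexes gave a wide gap between control replicate 1 and the other livers. Yet the study's methods give the control mice as female, and all 6 livers carried *Xist* and no count of the Y-linked genes. The 23 female-biased genes were chosen from general knowledge of mouse liver, and both lists were made with earlier results of these data known. Counts of their members therefore describe these livers and are no independent check. The female-biased genes held 0.214% of the counts in control replicate 1 and 0.918% to 0.994% in the other 5. The 20 male-biased genes held 0.253% there and 0.0385% to 0.0516% in the others. Control replicate 1 was the lowest liver in 21 of 23 female-biased genes, where 25.1% of all genes tested had it lowest. It was the highest liver in 16 of the 17 male-biased genes past the count minimum, where 24.9% of all genes tested had it highest. It was past the Dixon value on the high side in 8 of the 17, where 1.88% of all genes tested were.

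Single genes of these lists showed near-absence on one side. *Hsd3b5*, a steroid dehydrogenase of male liver (chr3:98618634-98630252), was 28.8 CPM in control replicate 1 and 0.0548 to 0.197 CPM in the others. *Cyp4a12a*, an omega-hydroxylase of male liver, was 45.9 against 0.274 to 0.944 CPM, with 48.9% of its 50-base windows shared with other transcripts. *Elovl3*, a fatty acid elongase, was 35.6 against 3.43 to 12.7 CPM. On the female side, *Cyp2b13* was 12.7 CPM in control replicate 1 and 272 to 363 CPM in the others, and *Cyp3a41a* was 0.119 against 34.8 to 191 CPM. *Sult3a1* and *Cyp17a1*, the steroid hydroxylase, were 0.297 against 39.4 to 186 and 57.5 against 159 to 352 CPM. The 2 exceptions on the female-biased list were *Cyp2b10*, which was highest in control replicate 1, and the prolactin receptor *Prlr*, at 126 CPM there and lowest in control replicate 6 at 98.1 CPM.

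The other 5 livers also differed among themselves in these genes. *Cyp3a16*, *Cyp3a44* and *Cyp3a41b*, neighbours of *Cyp3a41a* on chromosome 5, were each highest in control replicate 3, at 81.0, 91.6 and 50.5 CPM, and among the 5 each was lowest in control replicate 6, at 1.37, 13.6 and 6.18 CPM. Of the 50-base windows of *Cyp3a41a*, 98.6% occur in another gene, so the split between *Cyp3a41a* and *Cyp3a41b* is uncertain. *Cyp2d9* was 181 CPM in control replicate 6 and at most 61.8 CPM in replicates 2 to 5. Without control replicate 1 the median CV was 40.7% for the female-biased and 38.0% for the male-biased genes. *Socs2*, a growth hormone target that limits its signal and was picked after its values were seen, was 20.2 and 22.0 CPM in control replicates 3 and 2, 10.7 CPM in control replicate 4 and 3.05 to 6.17 CPM in replicates 5, 6 and 1. *Igf1* and the growth hormone receptor *Ghr*, picked likewise, differed less, at 298 to 548 and 252 to 404 CPM.

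**Figure D4:**
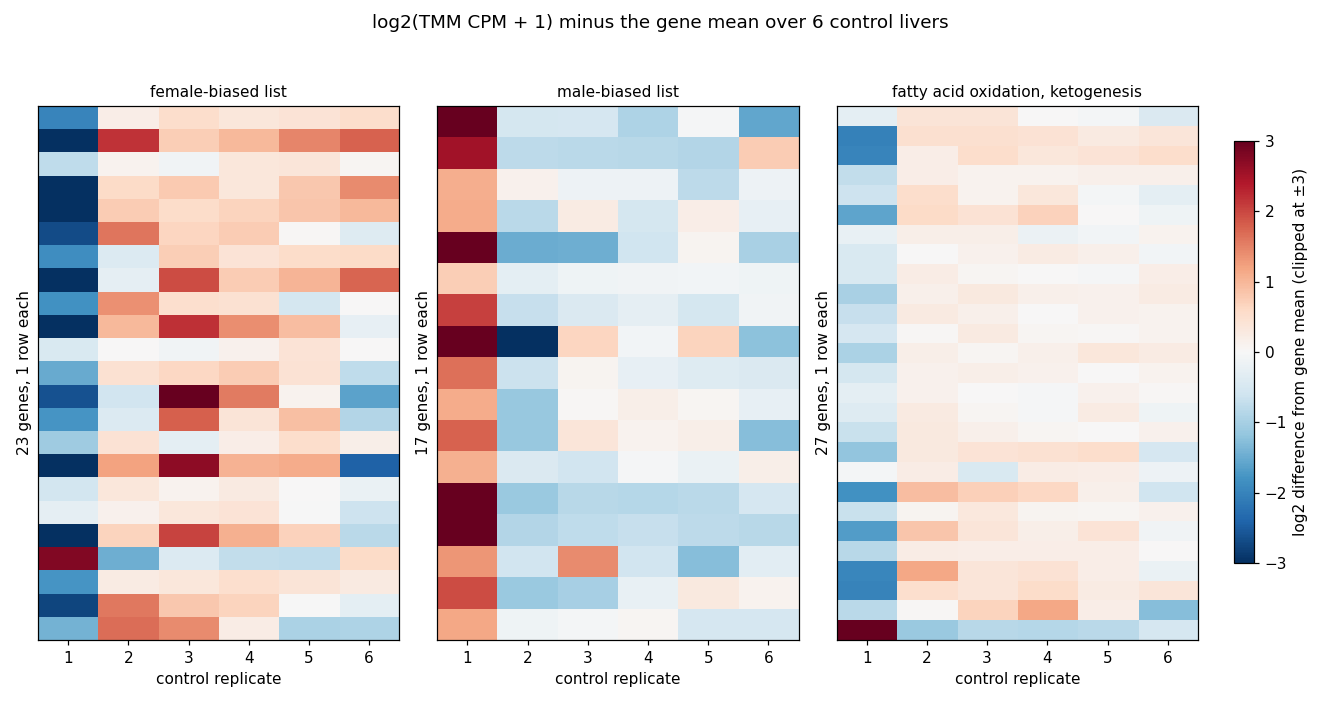
Each row is a gene of the female-biased, male-biased or fatty acid oxidation list past the count minimum, each column a control liver, and the colour its log2(CPM + 1) minus the gene's mean over the 6 livers, clipped at 3 in either direction, with genes ordered by mean TPM from the top. Control replicate 1 is blue in 21 of 23 female-biased and 23 of 27 oxidation genes as the lowest liver, and red in 16 of 17 male-biased genes as the highest.

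Clock genes varied nearly as much without control replicate 1 as with it. In the clock, *Arntl* and *Clock* drive genes through the E-box CACGTG, the products of *Per* and *Cry* genes repress them, and *Dbp*, *Tef* and *Hlf* act through the D-box, which *Nfil3* represses. The 18 clock genes past the count minimum had a median CV of 38.7%, or 34.9% over the 5 livers, and 7 of the 18 reached 50%, 4 of them also over the 5. In control replicates 1 to 6 in turn, *Arntl* was 15.4, 3.67, 19, 15.3, 5.71 and 6.26 CPM. *Dbp*, in the same order, was 13, 57.6, 7.23, 9.47, 43.2 and 63.2 CPM, so that the 3 livers highest in *Arntl* were the 3 lowest in *Dbp*. Of the windows of *Dbp*, 16.2% are shared with *Sphk2*. *Per3*, a repressor subunit, was 12.8, 63.1, 16.5, 15.7, 32.5 and 52.5 CPM, and *Usp2*, a deubiquitinase with a clock-driven transcript, was 14.5, 57.6, 22.5, 28.8, 65.6 and 73.5 CPM. *Nfil3* was highest in control replicate 1 at 37.5 CPM and lowest in control replicate 6 at 11 CPM. *Nr1d1*, which represses *Arntl*, was 20.6 CPM in control replicate 3 and 58.8 to 69.2 CPM in the other 5. *Hlf*, at 51.9 to 69.1 CPM, and *Cry1*, at 9.95 to 13.6 CPM, changed little.

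**Figure D5:**
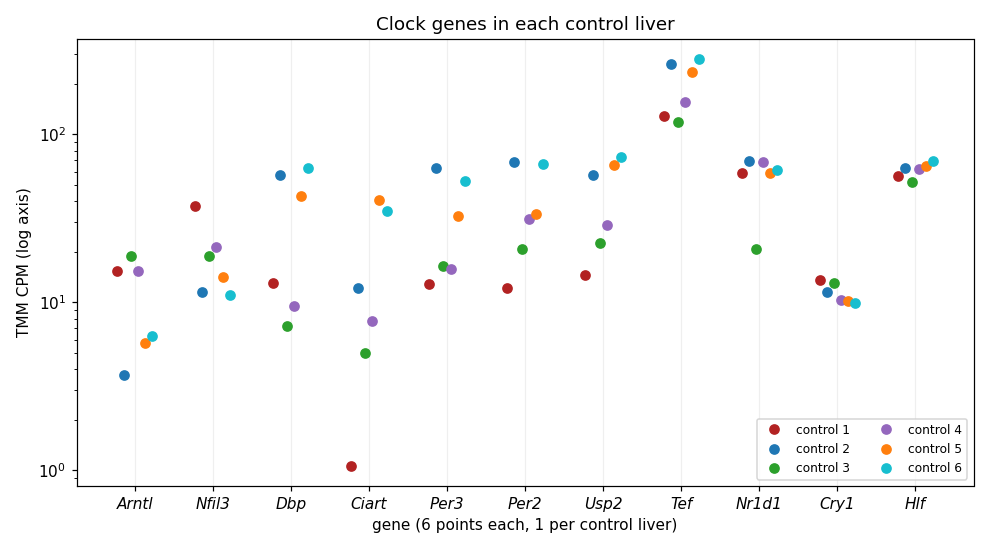
CPM (y axis, log scale) of 11 clock genes in each control liver, with 1 point per liver. *Arntl* spans 3.67 to 19 CPM, *Dbp* 7.23 to 63.2 CPM and *Ciart* 1.07 to 40.4 CPM.

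The promoters of *Ciart* and *Per3* are shown because they hold the motifs most often among the clock genes and their levels were among the most spread. *Ciart*, a repressor in the clock, was 1.07 CPM in control replicate 1, 4.97 to 12.2 CPM in replicates 2 to 4 and 35.2 to 40.4 CPM in replicates 6 and 5. Both sequences come from RefSeq (GRCm38.p6), 250 bases before to 50 bases after the start, 5′ to 3′ on the minus strand. Capitals mark CACGTG in *Ciart* (chr3:95882179-95882478) and TTATGTAA in *Per3* (chr4:151044616-151044915).
Ciart: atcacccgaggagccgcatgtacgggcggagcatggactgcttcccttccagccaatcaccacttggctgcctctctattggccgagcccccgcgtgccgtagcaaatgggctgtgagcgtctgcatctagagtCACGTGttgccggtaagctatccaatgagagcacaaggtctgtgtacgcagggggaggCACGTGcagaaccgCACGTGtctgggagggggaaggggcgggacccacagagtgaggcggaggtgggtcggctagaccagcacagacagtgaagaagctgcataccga
Per3: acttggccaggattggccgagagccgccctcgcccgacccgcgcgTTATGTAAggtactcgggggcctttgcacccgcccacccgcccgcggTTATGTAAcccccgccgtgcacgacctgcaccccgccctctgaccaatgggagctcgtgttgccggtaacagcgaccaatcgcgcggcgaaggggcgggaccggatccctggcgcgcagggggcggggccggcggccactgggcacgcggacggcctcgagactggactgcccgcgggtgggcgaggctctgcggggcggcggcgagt
The E-box CACGTG, which reads the same on both strands, stands 116, 58 and 44 bases before the start of *Ciart*. It was found in the same window of 7.24% of 27025 promoters, and 24 of those hold it at least 3 times. The D-box was searched as TTATGTAA and TTACATAA on both strands, starts 205 and 158 bases before the start of *Per3*, and was found in 0.955% of promoters, 7 of which hold it at least 2 times. Of the 17 clock genes with a promoter in the table, 5 hold an E-box, *Per1*, *Cry1*, *Tef*, *Bhlhe41* and *Ciart*, and 1 holds a D-box. *Arntl*, *Dbp*, *Nfil3* and *Nr1d1* hold neither in this window. A match describes letters in the window and not binding.

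Pairs of genes with a textbook link were compared across the 6 livers on the log2(CPM + 1) scale. Of 12 pairs, 4 involved a gene whose livers fell into separate sets, each of more than 1 liver. The gap between such sets was over 0.5 of the range. Both *Arntl* pairs were among the 4, and no correlation is given for those. A gap that set a single liver apart was not counted. Among the pairs kept, *Saa1*, *Mup20*, *Hbb-bs*, *Lcn2*, *Srebf1* and *Fasn* each had 1 liver past the Dixon value. For the other 8, exact two-sided permutation tests over 720 pairings were adjusted over all 12. *Col1a1* and *Col3a1*, the fibrillar collagen chains, had r = 0.96 (rho = 0.77, exact permutation p = 0.0139, adjusted p = 0.0667, n = 6), and r = 0.77 without the 2 livers farthest from the median of *Col1a1*. *Hba-a1* and *Hbb-bs*, globin chains that share 72.3% and 53.2% of their windows with sister copies, had r = 0.95 (rho = 0.89, exact permutation p = 0.0111, adjusted p = 0.0667, n = 6), and r = 0.43 without 2 livers. *Cd74* and *H2-Ab1*, of antigen presentation, had r = 0.94 (rho = 0.83, exact permutation p = 0.0208, adjusted p = 0.0667, n = 6), and r = 0.46 without 2 livers. *Mup20* and *Elovl3* had r = 0.85 (rho = 0.89, exact permutation p = 0.0236, adjusted p = 0.0667, n = 6), and r = 0.07 without 2 livers, 1 of them control replicate 1. No pair passed an adjusted p of 0.05. The Pearson adjusted p was 0.174 for *Srebf1* and *Fasn* (exact permutation test, r = 0.84 over 6 livers and -0.40 without 2), and from 0.404 to 0.740 for *Sqle* with *Idi1*, *Saa1* with *Lcn2* and *Glul* with *Cyp2e1* in the same exact permutation tests. The relations of *Srebf1* with *Fasn* and of *Mup20* with *Elovl3* thus rested on the livers left out. Those of *Hba-a1* with *Hbb-bs* and of *Cd74* with *H2-Ab1* rested on them in part.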

How the data were processed

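Livers of 12 mice were sequenced in the series, and the 6 control libraries were used. The study's methods give poly(A) selection with a stranded kit, paired reads, alignment with STAR to GRCm38 and gene counts on an Ensembl annotation. Which strand was counted is not given in the sources used here, so overlapping and antisense genes are uncertain. The deposited values are raw counts per gene made by the authors, with no normalization and 0 columns of no sample.

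From these counts, TMM factors were computed on the 6 libraries with edgeR 4.0.16 in R 4.3.3, and CPM, CV and Dixon ratios with Python 3.11.15 (NumPy 2.4.6, pandas 2.3.3). Dixon ratios of genes used log2(CPM + 1). TPM used the union of exons in GENCODE M21, which is not the annotation the counts were made on. The CV was ranked among genes with a mean count of 50 or more. Counting error alone gave a median CV of 5.40%, and intervals and floors (3 counts) cover counting error only. Shared windows are 50-base stretches of a gene's transcripts that also occur in another gene's. Promoters were aligned with Biopython 1.88. The scripts were tested on simulated data.

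Named are the 10 genes with the highest TPM, the 20 with the highest and the 20 with the lowest CV, the leading, most variable and floor members of each list, the genes of the 12 pairs and the label checks. Other genes named were picked after their values were seen. Some genes that the rule would name are not reported here. The members and lists were chosen with earlier results of these data known. No comparison between groups was made, and pairs were tested with exact permutation tests and Benjamini-Hochberg adjustment. Scaling, filters, lengths, measures of spread and left-out libraries were varied.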

Additional observations from a re-analysis of the deposited data

Results flagged for a closer look

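Among 267 values examined across the 6 livers, 58 had 1 liver far from the others, with the gap to its neighbour a larger share of the whole range than Dixon's 95% critical value allows. Chance flags about 1 in 20 such groups. Many of the genes were named for their spread, and groups share genes, so the number is not set against that rate. Control replicate 1 was the liver apart in 51 of the 58, and the causes were not tested. The ratios below are the gap divided by the range.

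The library total of control replicate 4 (0.693) and the number of genes in which a liver stands apart, highest in control replicate 1 (0.8), were flagged. Shares of counts were high in control replicate 1 for male-biased genes (0.939), antioxidant genes (0.867), aldo-keto reductases (0.805), collagens (0.763), glutathione transferases (0.762), major urinary proteins (0.735), pancreas markers (0.669) and bile acid synthesis (0.664). They were low there for family 4 cytochromes P450 (0.904), female-biased genes (0.902), all cytochromes P450 (0.860), fasting-responsive genes (0.775) and fatty acid oxidation (0.708). The share of nuclear-encoded respiratory chain genes was high in control replicate 6 (0.7).

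Single genes high in control replicate 1 were *Hsd3b5* (0.962), *Cyp4a12a* (0.883), *Adh4* (0.839), *Gsta3* (0.822), *Alas2* (0.820), *Cat* (0.812), *Mup21* (0.787), *Saa1* (0.774), *Gstm3* (0.741), *Mup7* (0.737), *Akr1c14* (0.712), *Mup20* (0.702), *Gstm6* (0.696), *Mlxipl* (0.684), *Nox4* (0.681), *C6* (0.675), *Pdia6* (0.664), *Orm2* (0.649), *Srebf1* (0.639), *Fasn* (0.627) and *Meg3* (0.626). Those low there were *Cyp2b13* (0.912), *Cyp4a14* (0.910), *Fgf21* (0.879), *Acadm* (0.876), *Cyp4a10* (0.867), *Sult2a2* (0.854), *Sult2a1* (0.845), *Cpt1a* (0.778), *Cidec* (0.760), *Elovl5* (0.716), *Sult3a1* (0.692), *Mat1a* (0.692), *Fads2* (0.690), *Cyp2a22* (0.676), *Cyp3a41a* (0.673) and *Agt* (0.631). In other livers, *Nr1d1* was low in control replicate 3 (0.864), *Hbb-bs* high in control replicate 4 (0.663), *Cfd* (0.693) and *Fabp4* (0.679) high in control replicate 5, and *Lcn2* high in control replicate 6 (0.653).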

How the results depend on the processing

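No paired analysis was possible because a single group of livers was described and no groups were compared. Over 138 results, 969 of 1077 alternative values kept their direction and stayed close to the reported value, 101 moved and 7 reversed. Many of these values are mean shares or mean TPM with 1 library left out. Leaving out 1 of 6 livers cannot move a mean by as much as the SD between them. Such values thus stayed close whatever the data, and the total of 969 is no measure of stability. As shares of TPM in place of counts, plasma carriers held 19%, apolipoproteins 9.51%, fatty acid oxidation 4.85%, major urinary proteins 0.561%, cytochromes P450 4.57%, mitochondrially encoded genes 6.99% and the top 10 genes 23.5%, since TPM divides by length. Genes with a CV of 50% or more numbered 214, against 626 with a mean count of 10 or more, 129 with 200 or more, 106 by an edgeR tagwise biological CV of 0.5 or more, and 105 to 260 when each library was left out, with 105 without control replicate 1. Genes with a CV under 10% numbered 2612 to 3647 with 1 library left out. The number of genes with low spread was 2494 with library totals, under which *Cdk16* had a CV of 3.99%. Of the gene pairs, *Srebf1* and *Fasn* ranged from r = -0.025 (without control replicate 1) to 0.97 with 1 library left out and gave -0.40 without 2, *Sqle* and *Idi1* ranged from -0.10 (without control replicate 2) to 0.74, *Saa1* and *Lcn2* from -0.28 to 0.26, with 0.08 without control replicate 1, 0.26 without control replicate 6 and 0.20 without 2, and *Glul* and *Cyp2e1* from -0.86 to 0.46, the latter without control replicate 1. Why these pairs reversed was not tested. Genes under a mean count of 50 were too shallow for their spread to be read.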

Other observations

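The antioxidant genes, many of them targets of the oxidant-sensing factor NRF2, were led by *Gpx1*, a glutathione peroxidase, at 2449 ± 279 TPM (SD, n = 6) and *Cat*, catalase, at 2173 ± 460 TPM. Control replicate 1 was set apart in the summed share of these genes, and their median CV fell from 17.0% to 9.57% without control replicate 1. *Gsta3*, a glutathione transferase, was 1585 CPM in control replicate 1 and 719 to 828 CPM in the other 5. *Akr1c14*, a hydroxysteroid dehydrogenase, was 359 against 103 to 148 CPM.

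Of the heat shock genes, *Hspa1b*, an inducible HSP70 chaperone, was highest in control replicate 4, at 25.3 CPM. It was lowest in control replicate 1, at 1.30 CPM, and 2.09 to 12.8 CPM in the rest. *Hsph1*, its partner, was 150 CPM in control replicate 4 and 28.9 CPM in control replicate 1. The endoplasmic reticulum genes *Pdia6*, a disulfide isomerase, and *Sdf2l1* were highest in control replicate 1, at 272 against 87.7 to 128 CPM and at 20.8 against 3.18 to 7.23 CPM. *Tfrc*, the transferrin receptor, was 55.1 CPM in control replicate 6 and 9.90 to 24.8 CPM in the others.

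Genes of antigen presentation and the interferon response had median CVs of 16.9% and 25.2%, over 15 and 19 genes past the count minimum. The class I genes *H2-K1* and *H2-D1* stood at 1086 ± 50.4 and 609 ± 28.3 TPM. *Iigp1*, an interferon-inducible GTPase, was 230 CPM in control replicate 1, 80.3 CPM in control replicate 6 and 93.8 to 147 CPM in between.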
